A study of Mus musculus with 2 samples.

Results

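The genes described here are 10 genes of insulin signalling and glucose uptake in the mouse omentum, a sheet of visceral fat that carries small lymphoid clusters called milky spots. They were chosen by gene symbol, as parts of the path from the insulin receptor to glucose entry and its use: *Insr*, *Irs1*, *Irs2*, *Pik3r1*, *Akt2*, *Foxo1*, *Slc2a4*, *Slc2a1*, *Hk2* and *Pck1*. All 10 were found among the 24346 gene symbols of the series. RNA-seq was performed on whole omenta taken 5 days after injection of diphtheria toxin (DT). There was 1 library from wild-type (WT) mice and 1 from *Postn*-DTR mice. The latter were heterozygotes with a diphtheria toxin receptor placed in the first coding exon of *Postn*, so DT kills cells that use the *Postn* promoter, among them the *Aldh1a2*+ fibroblastic reticular cells under study. Mesenchymal cells outside the omentum use that promoter too, for example in bone, colon and stomach. DT was given to both genotypes. Age, sex, the number of mice behind each library, food intake and the time of the last meal were not given in the sources used here.

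Insulin binds its receptor on adipocytes, which then phosphorylates the insulin receptor substrates (IRS). These recruit PI3K and, through it, activate the kinase AKT2. AKT2 sends vesicles with the glucose transporter GLUT4 to the cell surface and keeps the transcription factor FOXO1 out of the nucleus, and hexokinase then traps the glucose inside the cell. In fat, fasting is known to lower *Slc2a4* and *Hk2* and to raise *Irs2* and *Pck1*, the latter encoding the enzyme that feeds glycerol synthesis from pyruvate and lactate, and feeding does the reverse.

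With 1 library per genotype no difference had a replicate check, and no test between genotypes was possible. Levels are given as deposited, in FPKM, fragment counts scaled for transcript length and library size, a unit that allows levels of different genes to be compared. The change of a gene is its log2(FPKM + 1) in *Postn*-DTR less that in WT, a scale that compresses differences at low FPKM, and folds are ratios of the deposited FPKM. Genes whose FPKM averaged 1 or more over the libraries were compared, 13127 in all, and these included all 10 genes. In counts of genes, lower or higher means a change of 2-fold or more unless another threshold is named. Depth was estimated at 23300000 fragments for WT and 24000000 for *Postn*-DTR. The targeted gene *Postn* was at 58.3 FPKM in WT against 16.2 FPKM in *Postn*-DTR, the direction its label implies.

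Of the 10 genes, 1 was at least 2-fold lower in *Postn*-DTR and 1 at least 2-fold higher, against 3.12% lower and 3.88% higher of all genes compared. The gene that was lower was *Slc2a4*, which encodes the insulin-responsive transporter GLUT4. The gene that was higher was *Irs2*. Their median change was -0.0019, beside 0.02 for all genes compared, so the 10 genes as a group were centred where all genes were. They spread from -1.64 for *Slc2a4* to 1.11 for *Irs2*. Lowering the threshold to 1.5-fold added *Irs1* and *Pik3r1*, for 3 lower genes where 8.84% of all genes were lower. It left 1 higher gene where 9.86% were higher. *Slc2a1*, 1.53-fold higher in FPKM, stayed just short of 1.5-fold on the log2(FPKM + 1) scale, with a change of 0.57. *Pck1* was the most abundant of the 10 in both libraries and *Irs1* the least abundant, while *Slc2a4* went from rank 3 in WT to rank 7 in *Postn*-DTR.

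**Figure D1:**
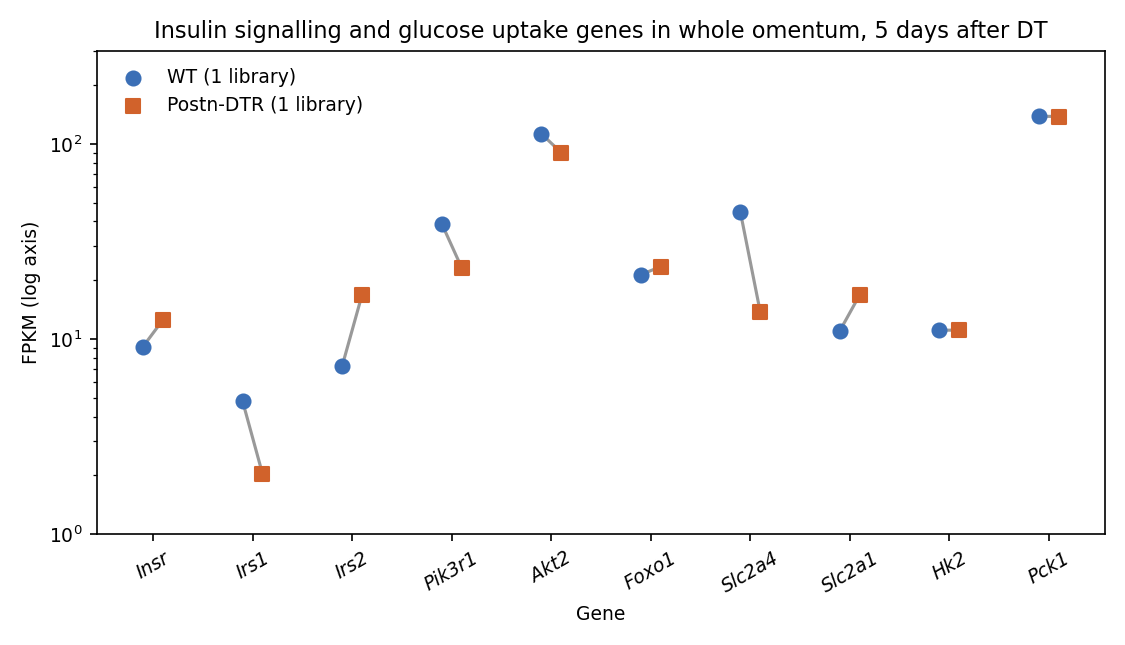
FPKM (log axis) of the 10 genes in the WT library (circles) and the Postn-DTR library (squares), 1 library each, joined by a line for each gene. Slc2a4 is lower in Postn-DTR (44.8 and 13.7), Irs2 is higher (7.25 and 16.8), and the points of Hk2 and of Pck1 lie at the same height.

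The receptor was examined first. *Insr* (ENSMUSG00000005534, chromosome 8, 3122061 to 3279617 on the minus strand, GRCm38), which encodes the insulin receptor, had an FPKM of 9.13 in WT against 12.5 in *Postn*-DTR, a change of 0.42. *Insr* was higher in *Postn*-DTR under all 8 alternative settings, but by only 0.10 at equal totals. In that setting pancreatic acinar genes, which summed to 12550 FPKM in WT against 21.6 in *Postn*-DTR, were taken out. The remaining FPKM were then set to equal totals. Summed FPKM of all genes was 542190 in WT against 671882 in *Postn*-DTR, so this setting also evened out totals that differed beyond the acinar genes. Its relative *Igf1r*, the receptor of insulin-like growth factor, was at 3.25 and 4.24. *Insr* made up 72.2% of the summed FPKM of the receptor family in WT against 73.8% in *Postn*-DTR, so the make-up of the family was similar. The insulin genes *Ins1* and *Ins2* were listed at 0 in both libraries.

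The insulin receptor substrates, the docking proteins that carry the signal from the receptor to PI3K, differed most in their make-up. *Irs1* (ENSMUSG00000055980, chromosome 1, 82233101 to 82291416 on the minus strand) was at 4.8 FPKM in WT against 2.04 FPKM in *Postn*-DTR. This was 2.36-fold lower, with a change of -0.93 that stayed just short of 2-fold on the log2(FPKM + 1) scale. *Irs2* (ENSMUSG00000038894, chromosome 8, 10984681 to 11008458 on the minus strand) was at 7.25 FPKM in WT against 16.8 FPKM in *Postn*-DTR, which was 2.32-fold higher with a change of 1.11. The third substrate, *Irs3*, which is expressed in rodent fat, went the way of *Irs1*, with 17.1 and 8.22 FPKM and a change of -0.98. *Irs4* was listed at 0 in both libraries. The ratio of *Irs2* to *Irs1* was 1.51 in WT against 8.26 in *Postn*-DTR, a 5.47-fold difference that no rescaling of the libraries can move. The summed FPKM of the substrates was 29.2 and 27.1, close to each other, but *Irs2* supplied 24.9% of it in WT against 62.1% in *Postn*-DTR. *Irs3* supplied 58.7% and 30.3%.

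*Irs1* stayed lower in the 7 alternatives in which it was compared, from -1.20 to -0.48, and passed 2-fold with a pseudocount of 0.1 and at equal totals. *Irs2* stayed higher in all 8, from 0.80 to 1.49, but fell short of 2-fold at equal totals (0.80) and with a pseudocount of 5 (0.83). From the estimated reads behind these values, 1001 and 437 for *Irs1* and 1035 and 2474 for *Irs2*, the 95% interval of the *Postn*-DTR to WT ratio was 0.378 to 0.475 for *Irs1* and 2.16 to 2.50 for *Irs2*. These exact binomial intervals cover counting error only and say nothing of the spread between mice. The exons of *Irs1* share 2822 of 9144 bp with a gene on the opposite strand, *Gm9747*. The libraries were stranded, but whether the counting used strand was not given in the sources used here, so part of the *Irs1* value may belong to that gene. Overlaps with opposite-strand genes were smaller for *Foxo1* (7.78% of exonic bases) and *Irs2* (2.56%).

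Since *Irs1* and *Irs2* differed in opposite directions, their upstream sequences were set side by side, with that of *Pck1*, a gene known to be repressed by insulin. They are the 250 bases before the RefSeq transcription start (build GRCm38.p6), at chr1:82291440-82291689 on the minus strand for *Irs1*, chr8:11008930-11009179 on the minus strand for *Irs2* and chr2:173152823-173153072 on the plus strand for *Pck1*. Capitals mark an E-box (CACGTG), an insulin response element (TGTTTTG) known from insulin-regulated promoters, and in *Pck1* the cAMP response element TTACGTCA.
Irs1: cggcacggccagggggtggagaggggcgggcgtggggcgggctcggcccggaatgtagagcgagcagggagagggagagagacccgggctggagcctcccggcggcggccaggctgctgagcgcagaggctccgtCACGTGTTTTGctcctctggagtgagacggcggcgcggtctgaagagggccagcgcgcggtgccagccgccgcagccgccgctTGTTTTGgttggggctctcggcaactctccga
Irs2: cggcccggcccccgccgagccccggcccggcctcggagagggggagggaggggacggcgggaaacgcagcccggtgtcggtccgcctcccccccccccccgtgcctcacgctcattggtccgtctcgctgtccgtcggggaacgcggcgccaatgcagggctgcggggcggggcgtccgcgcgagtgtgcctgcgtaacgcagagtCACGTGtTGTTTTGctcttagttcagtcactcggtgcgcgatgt
Pck1: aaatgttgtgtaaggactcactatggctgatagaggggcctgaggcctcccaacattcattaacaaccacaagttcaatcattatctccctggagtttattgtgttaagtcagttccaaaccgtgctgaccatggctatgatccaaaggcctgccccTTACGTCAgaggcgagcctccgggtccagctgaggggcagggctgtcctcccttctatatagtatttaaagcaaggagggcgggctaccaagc
With positions counted back from -1 at the last base shown, the E-box of *Irs1* lay at -115 to -110 and overlapped the insulin response element at -111 to -105, with a second copy of that element at -32 to -26. In *Irs2* the E-box lay at -44 to -39, followed 1 base later by the same element at -37 to -31. Over all 32851 upstream windows of this length, 6.02% held an E-box, 5.56% held the insulin response element on either strand and 0.295% held both. The element TTACGTCA of *Pck1*, at -93 to -86, was in 0.447% of windows on either strand. The FOXO consensus GTAAACA was in 3.17% of all windows and in 0 of the 12 windows of the 8 genes matched in the RefSeq table, and the palindromic cAMP element TGACGTCA was in 1.55% of all windows and likewise in 0 of these 12. This says only that these letters are not there. These motifs were chosen after the sequences had been read, they are not evidence of binding, and the paired elements were present in both the gene that was lower and the gene that was higher. *Insr* and *Slc2a4* had no entry.

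Among the other receptor-proximal genes, the list of 17 receptors and adaptors had 14 genes compared, with a median change of 0.02 and 7 genes on each side of 0. *Grb2* (54.1 and 56.5 FPKM) and *Shc1* (50.3 and 54.3 FPKM), adaptors that link the receptor to RAS, were the most abundant genes of this list and stood at almost equal levels.

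Genes of inhibitors of insulin signalling were examined next. Of 19 compared 3 were higher, where 3.88% of all genes were, and 0 were lower. A change above 0 was found for 11 and below 0 for 8, a split near that of all genes, of which 51.9% were above 0. The median change was 0.39. At least 1.5-fold higher were 8, where 9.86% of all genes were. At least 1.5-fold lower were 0, where 8.84% of all genes were. *Socs3*, a cytokine-induced protein that blocks the receptor and marks IRS proteins for breakdown, was at 17.8 FPKM in WT against 143 FPKM in *Postn*-DTR, an 8.07-fold difference. *Ceacam1*, which promotes insulin clearance in liver and is also expressed by leukocytes and endothelium, was at 9.69 and 27.0 FPKM. *Enpp1*, an inhibitor of the receptor, was at 2.02 and 6.06 FPKM. The tyrosine phosphatase gene *Ptpn1*, which shuts the receptor off, was 1.69-fold higher at 33.4 and 56.5 FPKM. At equal totals the median fell to 0.058, beside -0.28 for all genes, and 2 genes were higher, *Socs3* and *Ceacam1*. All 11 macrophage markers had a change above 0, with 4 of them at least 2-fold higher and a summed FPKM of 5059 in WT against 8919 in *Postn*-DTR. Neutrophil markers summed to 441 and 711, with 4 higher and 3 lower of the 9 compared. The *Postn*-DTR to WT ratio of single macrophage markers ran from 1.38 for *Csf1r* to 6.84 for *Cd14*, and the ratios of *Irs2* (2.32) and *Slc2a1* (1.53), which macrophages also express, lay within that range. The part of these cells in the values of the inhibitors, *Slc2a1* and *Irs2* was not tested. In whole tissue, fewer cells of a type and less RNA per cell cannot be told apart.

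*Pik3r1* (ENSMUSG00000041417, chromosome 13, 101680563 to 101768217 on the minus strand) encodes the main regulatory subunit of PI3K, the lipid kinase that IRS proteins recruit. Its FPKM was 39.0 in WT against 23.2 in *Postn*-DTR, 1.68-fold lower with a change of -0.72. In all 8 alternatives the change was below 0, from -1.06 to -0.35. It supplied 59.0% of the summed FPKM of the class IA regulatory subunits in WT against 48.3% in *Postn*-DTR, while *Pik3r2* was at 24.9 and 22.8 FPKM. Among the catalytic subunits, *Pik3cb* was at 9.02 and 5.11 FPKM, *Pik3ca* at 8.41 and 7.65 FPKM, and *Pik3cd*, the most abundant, at 31.7 and 30.6 FPKM. *Pik3cg*, the leukocyte subunit gamma, was at 6.37 and 11.6 FPKM, and its partner *Pik3r5* at 13.4 and 30.6 FPKM. *Pik3r5* was thus the only PI3K subunit gene of the 9 that differed by at least 2-fold under the main setting. It reached 0.81 at equal totals.

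*Akt2*, which encodes the AKT kinase that insulin uses in fat, was at 113 FPKM in WT against 90.2 FPKM in *Postn*-DTR. Its change of -0.32 lay well within 2-fold and turned to 0.058 when changes were centred on adipocyte markers. *Akt1* was at 84.4 and 122 FPKM, so *Akt2* was the more abundant of the pair in WT and the less abundant in *Postn*-DTR, with ratios to *Akt1* of 1.34 and 0.738. *Foxo1*, the transcription factor held back by AKT, was at 21.3 and 23.5 FPKM. Its change of 0.13 turned to -0.20 at equal totals, so it had no stable direction. *Foxo3*, a second factor of that family, was at 5.77 and 11.3 FPKM, and *Foxo4* at 15.3 and 14.8 FPKM. Of the 23 genes of AKT, mTOR, GSK3 and FOXO, 0 were at least 2-fold lower and 0 higher, with a median change of -0.030. *Eif4ebp1*, a translation repressor that is switched off through mTOR, was among the most abundant of them, at 121 and 155 FPKM.

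**Figure D2:**
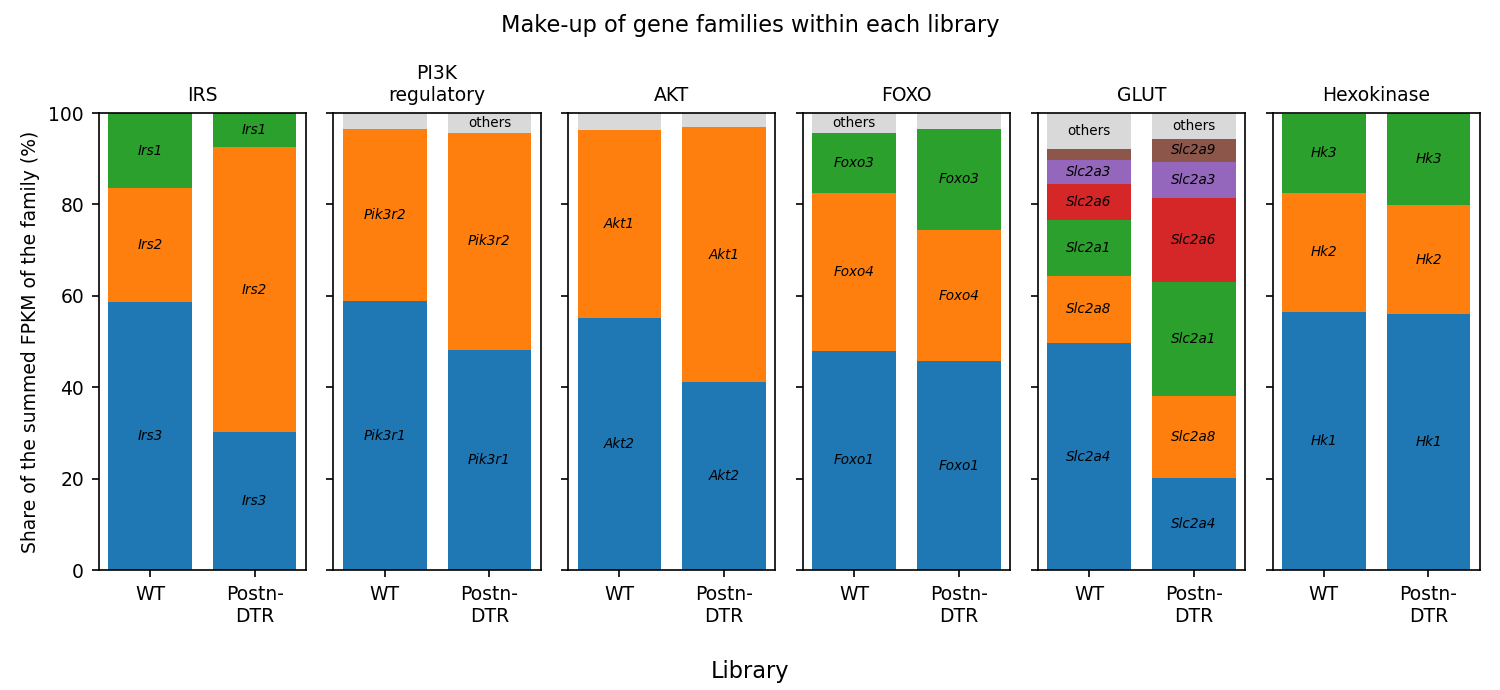
Share of each gene in the summed FPKM of its family (%), in the WT and Postn-DTR libraries (1 each), with genes under 5% in both libraries drawn together as others. Shares shift from Irs1 and Irs3 to Irs2 and, among glucose transporters (GLUT), from Slc2a4 (49.7% and 20.3%) to Slc2a1 (12.2% and 24.9%), while the hexokinase bars are nearly alike.

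The glucose transporters showed the largest difference of the 10 genes. *Slc2a4* (ENSMUSG00000018566, chromosome 11, 69942539 to 69948188 on the minus strand), the gene of GLUT4, had an FPKM of 44.8 in WT against 13.7 in *Postn*-DTR. This was 3.26-fold lower, with a change of -1.64, and 1.07% of the genes compared had a more negative change. It remained lower under all 8 alternatives, from -1.96 to -1.26, and the 95% counting interval of its ratio was 0.277 to 0.338. *Slc2a1* (ENSMUSG00000028645, chromosome 4, 119108711 to 119137983 on the plus strand), the gene of the insulin-independent transporter GLUT1, went the other way, with 11.0 FPKM in WT against 16.9 FPKM in *Postn*-DTR, 1.53-fold higher with a change of 0.57. Under the alternatives this change lay between 0.25 and 0.95 and was never below 0. *Slc2a4* was thus 4.06 times as abundant as *Slc2a1* in WT against 0.814 times in *Postn*-DTR, a 4.98-fold difference in the ratio.

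Over the 12 transporters of the family the summed FPKM was 90.0 in WT against 67.8 in *Postn*-DTR. *Slc2a4* supplied 49.7% of it in WT against 20.3% in *Postn*-DTR, and *Slc2a1* 12.2% and 24.9%. Of the 8 transporters compared 1 was lower and 0 were higher, and the median change was 0.0096. *Slc2a6*, a lysosomal transporter found in leukocytes, was at 7.01 and 12.5 FPKM, and *Slc2a3*, the gene of GLUT3, at 4.79 and 5.33 FPKM. *Slc2a8* was at 13.2 and 12.1 FPKM. *Slc2a5*, the fructose transporter, was under the expression minimum at 0.727 and 0.0287 FPKM.

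The difference in *Slc2a4* was larger than that of the adipocyte markers. Of 11 markers 1 was at least 2-fold lower and 8 were below 0, where 48.1% of all genes were, with a median change of -0.38 and summed FPKM of 16170 in WT against 15143 in *Postn*-DTR. Relative to *Adipoq*, the adiponectin gene, *Slc2a4* was 2.17-fold lower and *Irs1* 1.57-fold lower in *Postn*-DTR. *Pik3r1* was 1.12-fold lower, *Akt2* 1.20-fold higher and *Pck1* 1.5-fold higher on the same basis. These folds depend on the marker chosen. The *Postn*-DTR to WT ratio of *Adipoq* was 0.67, and the 11 markers ran from 0.46 for *Pparg* to 1.34 for *Fabp4*. Relative to the marker *Plin1*, *Slc2a4* was 1.92-fold lower. Skeletal muscle also uses GLUT4, and its 9 markers summed to 30.9 FPKM in WT against 15.2 in *Postn*-DTR, with 1 lower and 0 higher of the 4 compared. Most of that sum was *Myl1*, at 23.5 and 10.05 FPKM, and *Actn3* was at 3.80 and 1.44 FPKM. *Acta1* (0.369 and 0.454 FPKM) and *Ckm* (0.0707 and 0.103 FPKM) were near 0 and *Myh4* was listed at 0 in both libraries. The 6 thermogenic adipocyte markers summed to 123 in WT against 37.7 in *Postn*-DTR, most of it *Cox8b* at 114 and 31.8 FPKM, while *Ucp1* was at 0.0595 and 0.288 FPKM. The part of muscle and of thermogenic adipocytes in the *Slc2a4* value was not tested.

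Genes of the machinery that moves GLUT4 had, as a list, a median change near that of all genes. Of 19 genes of GLUT4 vesicle traffic 0 were lower and 1 was higher, where 3.12% of all genes were lower and 3.88% higher. The median change was -0.015, beside 0.02 for all genes. A change below 0 was found for 10 and above 0 for 9. The lowest was *Tusc5*, at 39.1 FPKM in WT against 22.2 FPKM in *Postn*-DTR, a change of -0.79. It was the only one at least 1.5-fold lower, where 8.84% of all genes were. At least 1.5-fold higher was 1 gene, where 9.86% of all genes were. *Rac1*, a GTPase of the actin cytoskeleton, was the most abundant, at 161 and 179 FPKM. The higher gene was *Lrp1*, at 87.9 and 187 FPKM, a vesicle protein that is also a scavenger receptor of macrophages. *Tbc1d4*, the AKT substrate AS160 that releases GLUT4 vesicles, was at 10.6 and 10.2 FPKM. *Tbc1d4* and *Tusc5* were named after their values were seen.

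**Figure D3:**
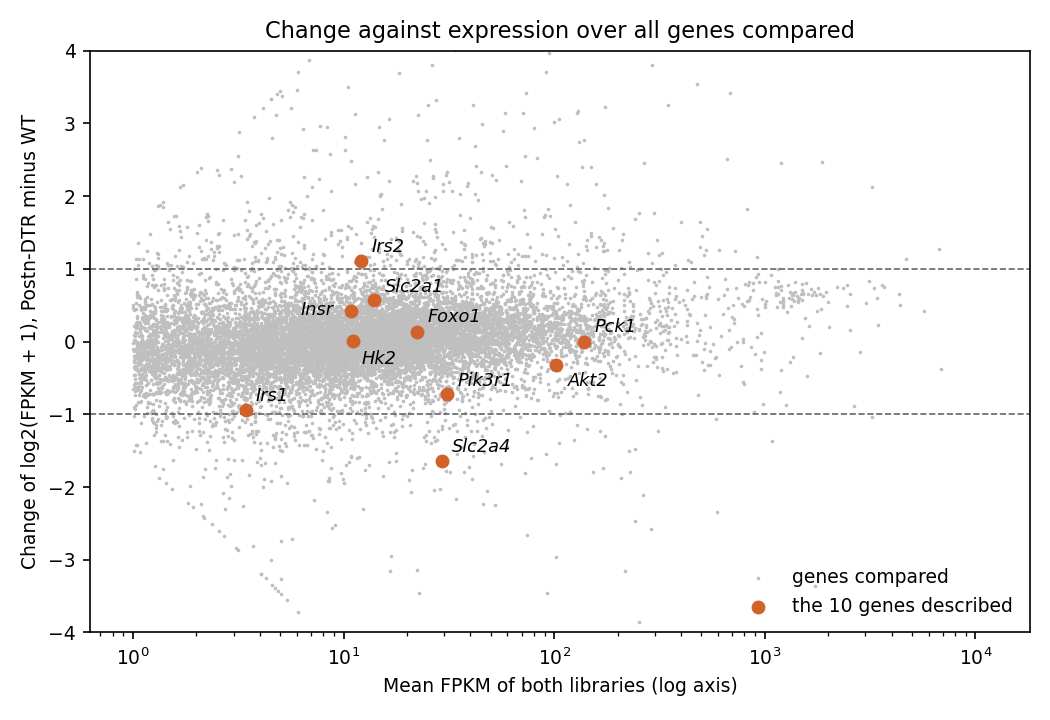
Difference in log2(FPKM + 1) between Postn-DTR and WT (positive where higher in Postn-DTR) against the mean FPKM of both libraries (log axis) for the genes compared (grey) and the 10 genes described (orange), with dashed lines at 2-fold. Slc2a4 lies below the lower line, Irs2 above the upper line and the other 8 between them, and 50 genes lie outside the plotted range.

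*Hk2*, the gene of the insulin-responsive hexokinase, was at 11.1 FPKM in both libraries, with a change of 0.0019. Its counting interval ran from 0.899 to 1.12 for the ratio. Its sign followed the scaling, from -0.31 at equal totals to 0.38 when centred on adipocyte markers. *Hk1*, the hexokinase of most cells, was at 23.9 and 26.1 FPKM and *Hk3*, a hexokinase of myeloid cells, at 7.24 and 9.33 FPKM. *Hk2* supplied 26.2% of hexokinase FPKM in WT against 23.8% in *Postn*-DTR. Of the 5 genes compared among hexokinases and glucose-6-phosphatases 0 differed by 2-fold in either direction.

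*Pck1*, which encodes cytosolic phosphoenolpyruvate carboxykinase, was at 139 FPKM in WT against 138 FPKM in *Postn*-DTR, a change of -0.0057. With about 7945 and 8152 estimated reads, the counting interval of its ratio ran from 0.966 to 1.03. Its sign too followed the scaling, from -0.35 to 0.37. Its mitochondrial relative *Pck2* was at 15.5 and 14.6 FPKM. Of the other genes of glycerol and phosphoenolpyruvate supply, some differed and others did not. *Pcx*, pyruvate carboxylase, which supplies oxaloacetate to *Pck1* and citrate for lipid synthesis, was at 328 FPKM in WT against 88.4 FPKM in *Postn*-DTR, 3.71-fold lower. *Gpd1*, which makes glycerol phosphate from a glycolytic intermediate, was at 358 and 128 FPKM, 2.80-fold lower, and *Aqp7*, the glycerol channel of adipocytes, at 13.2 and 5.68 FPKM. These were the 3 lower genes of the 11 compared on this list, and 0 were higher. Of all genes compared, 3.12% were lower and 3.88% higher. The list had 6 genes below 0 and 5 above, with a median change of -0.0057. *Mdh2*, among its most abundant genes, was at 212 FPKM in WT against 233 FPKM in *Postn*-DTR. *Pcx* was thus 2.37 times as abundant as *Pck1* in WT against 0.641 times in *Postn*-DTR.

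Glycogen genes were examined because insulin also drives glycogen synthesis. Of 13 genes compared 12 had a change below 0, where 48.1% of all genes did, and their median change was -0.67. The number at least 2-fold lower was 1 and at least 1.5-fold lower 8. *Gys2*, a glycogen synthase, was at 2.90 and 0.524 FPKM, and *Pygl*, a glycogen phosphorylase, at 129 and 78.3 FPKM. *Gyg*, the primer of glycogen, was the only one of the 13 above 0, at 43.7 and 52.2 FPKM. The list thus held both synthetic and breakdown enzymes among its lower genes. At equal totals 13 of 13 were below 0, where 10163 of all 13123 genes were. When centred on adipocyte markers 8 of 13 were below 0, where 2177 of all 13127 genes were.

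To place the 10 genes beside known feeding responses, lists of genes raised by fasting or FOXO and of genes raised by feeding and insulin were read. Of 18 genes compared on the fasting list 4 were higher, 0 were lower and 14 were above 0, with a median change of 0.42. Of all genes compared, 3.88% were higher, 3.12% lower and 51.9% above 0. Without the members *Insr*, *Irs2* and *Pck1* the median of the fasting list was 0.43 over 15 genes. *Pdk4*, which blocks the use of pyruvate, was at 14.3 and 75.9 FPKM, 5.30-fold higher. *Ddit4*, an inhibitor of mTOR, was at 34.7 and 172 FPKM and *Sesn1*, a FOXO and p53 target, at 36.1 and 84.2 FPKM. *Txnip*, a brake on glucose uptake that is itself raised by glucose, was at 480 and 722 FPKM, and the lipase gene *Pnpla2* at 362 and 495 FPKM. At equal totals 11 of the 18 were above 0 and the median was 0.10. In that setting 2960 of all 13123 genes were above 0, with a median of -0.28. *Ddit4* and *Pdk4* also respond to glucocorticoids.

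On the feeding list 13 of 20 genes compared were at least 2-fold lower, where 3.12% of all genes were, and 0 were higher. The median change was -2.20. Many of its genes are the lipogenic genes whose decrease was already known when the list was written, so it is not independent evidence. Among its lower genes, *Me1*, malic enzyme, was at 473 and 31.6 FPKM and *Acss2*, which activates acetate, at 170 and 14.5 FPKM. *Elovl6*, a fatty acid elongase, was at 42.8 and 3.0 FPKM. Of the members on this list, *Slc2a4* was lower and *Hk2* was not. Of the 5 members on these lists, *Slc2a4* and *Irs2* differed by at least 2-fold in the direction of fasting. *Insr* had a change of 0.42 in that direction, short of 2-fold, and *Hk2* and *Pck1* had changes under 0.01 in size in the deposited FPKM. Whether the mice of both genotypes had eaten alike was not measured by these libraries. The paper reports an enlarged cecum in some *Postn*-DTR mice after DT, and names damage to stomach or colon as a possible cause. The part of such damage in these values was not tested.

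**Figure D4:**
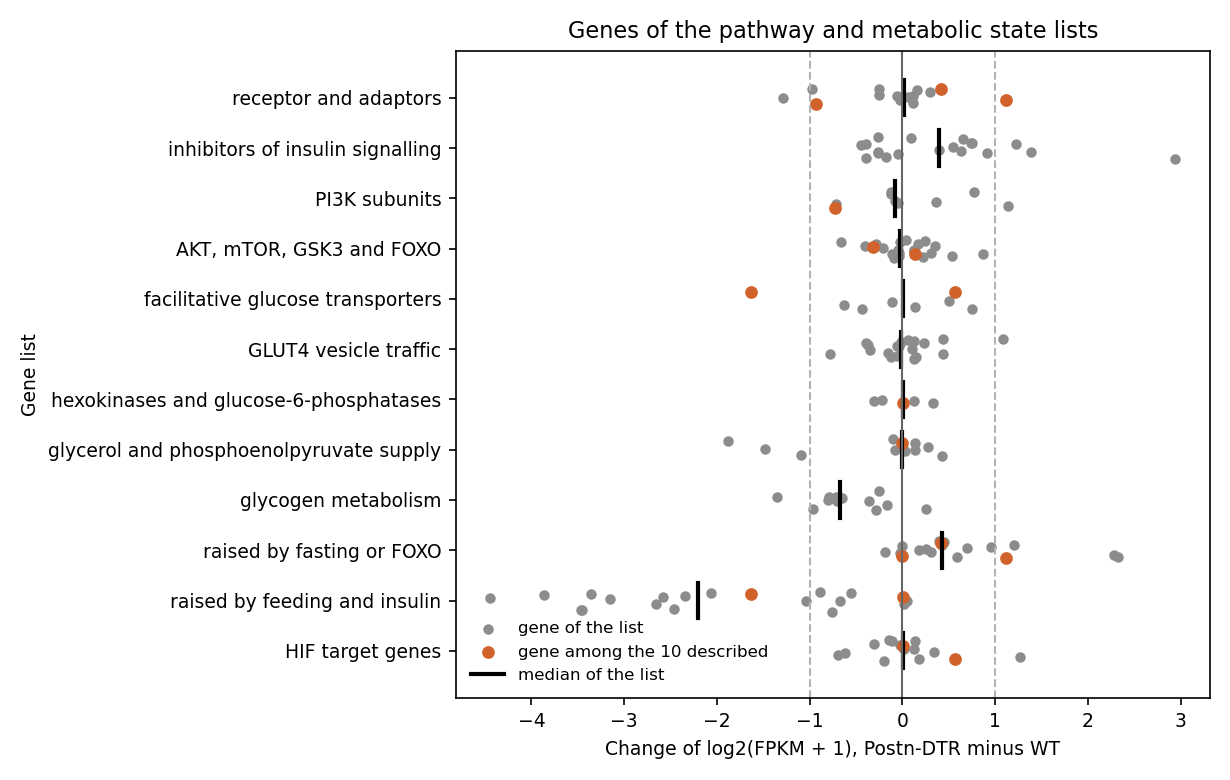
Difference in log2(FPKM + 1) between Postn-DTR and WT (positive where higher in Postn-DTR) of each gene compared on the pathway and metabolic state lists (grey points, with the 10 genes described in orange) and the median of each list (black bar), with dashed lines at 2-fold and points spread vertically for display. The medians lie near 0 except for the inhibitors (0.39), glycogen genes (-0.67), fasting genes (0.42) and feeding genes (-2.20), and the lists share genes.

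Over all pathway lists together, which held 124 genes beside the 10, 111 of these were compared. Of them 5 were lower and 5 higher, against 3.12% lower and 3.88% higher of all genes. Their median change was -0.047, close to that of all genes. The differences were thus in single genes of the path and in the lists named above.

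Directions of small changes depended on the scaling of the libraries. Setting equal totals without the acinar genes shifted the median over all genes by -0.30, and centring on adipocyte markers shifted it by 0.38. *Slc2a4*, *Irs1* and *Pik3r1* stayed below 0 and *Irs2*, *Slc2a1* and *Insr* above 0 under every alternative in which they were compared. *Akt2*, *Foxo1*, *Hk2* and *Pck1* changed sign under at least 1 of them.

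**Figure D5:**
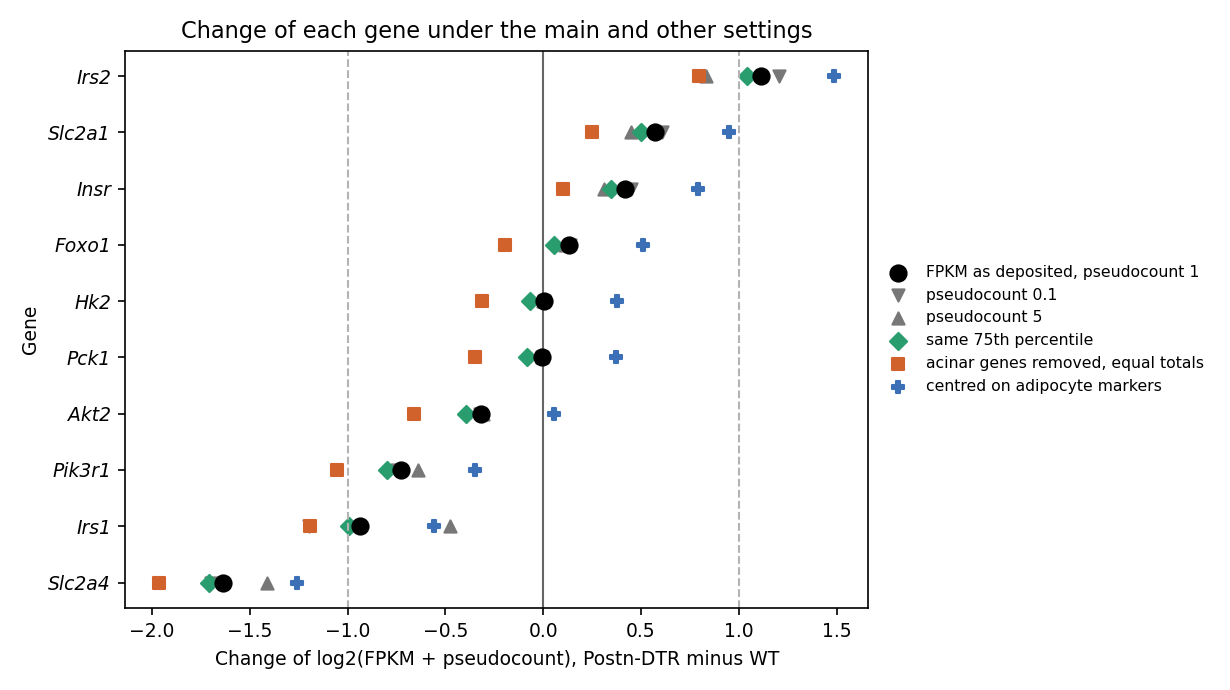
Difference in log2(FPKM + pseudocount) between Postn-DTR and WT (positive where higher in Postn-DTR) of each of the 10 genes with FPKM as deposited (black circles) and under 5 of the alternative settings, with dashed lines at 2-fold. Slc2a4 stays below -1 in all of them, from -1.96 to -1.26, while Hk2, Pck1, Foxo1 and Akt2 have points on both sides of 0.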

How the data were processed

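RNA was measured in whole omentum, with 1 library per genotype. Per the labels, a miRNeasy kit was used for RNA extraction and a stranded TruSeq mRNA kit for the libraries. The submitters' processing notes name TopHat2 2.1.1, Bowtie2 2.2.8, SAMtools 0.1.18, Cuffdiff 2.2.1 and build mm10, and the annotation was not given in the sources used here. The authors deposited FPKM, 1 value per gene symbol in each library. Groups came from the genotype labels.

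Changes were computed with a pseudocount of 1 over genes averaging an FPKM of 1 or more (Python 3.11.15, pandas 2.3.3, scipy 1.17.1). The scripts were tested on simulated data. Depth was estimated from the steps of low FPKM in genes with 1 annotated transcript, where 71.2% of WT values and 70.8% of *Postn*-DTR values came out within 0.05 of a whole read. An FPKM of 1 in a 2000 bp transcript was worth about 41.9 and 43.2 reads. Reads of a gene used its shortest basic coding transcript, so intervals are approximate. This choice makes them wider only for genes that also have longer coding transcripts, such as *Slc2a4* and *Hk2*, and not for *Irs1*, *Irs2* or *Pck1*. Positions came from GENCODE M21 (GRCm38), which matched 23310 symbols. The alternatives were other pseudocounts, filters, scalings and thresholds.

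Most genes named were drawn from the 10 genes, their relatives, and per list the largest changes of at least 2-fold (up to 4 each way) and the 2 most abundant genes. Not all of these are named. On the feeding list the largest decrease and the 2 most abundant genes are left out. A gene of the adaptor list is not reported here. Members and lists were chosen with earlier results of these data known.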

Additional observations from a re-analysis of the deposited data

How the results depend on the processing

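The number of the 10 genes at least 2-fold lower, 1 in the main setting, became 2 with a pseudocount of 0.1, 3 at equal totals without the acinar genes and 3 at a 1.5-fold threshold. The number higher, also 1, became 0 with a pseudocount of 5, at equal totals and at 3-fold. Their median change became -0.33 at equal totals and 0.38 when centred on adipocyte markers. Of all genes, 410 were lower and 509 higher. Lower genes became 643 and 168 with pseudocounts of 0.1 and 5, 173 at a minimum mean FPKM of 10, 786 at equal totals, 192 when centred on adipocyte markers, 1160 at 1.5-fold and 153 at 3-fold. Higher genes became 287 with a pseudocount of 5, 303 with that minimum, 306 at equal totals, 1163 when centred on adipocyte markers, 1294 at 1.5-fold and 199 at 3-fold. Higher genes were 55.4% of those past 2-fold, but 28.0% at equal totals and 85.8% when centred on adipocyte markers. For 65 named genes, 502 single values were recomputed, of which 181 moved beyond counting error and 0 of those at least 2-fold changed turned direction. No paired analysis was possible because there was 1 library per genotype. The counting interval of the ratio included 1 for *Hk2* and *Pck1* but not for the other 8 genes, and the spread between mice is unknown.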

Other observations

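Since *Slc2a1* is a known target of the hypoxia-inducible factor HIF, a list of 15 HIF target genes was also read. All 15 were compared, with 1 higher, 0 lower and a median change of 0.0019. The list holds *Slc2a1* itself and *Hk2*, and without these members the median was -0.025 over 13 genes. *Bnip3*, a mitophagy receptor that FOXO factors also control, was at 83.8 FPKM in WT against 202 FPKM in *Postn*-DTR, a change of 1.26. *Vegfa*, the vascular growth factor, was at 79.7 and 51.6 FPKM, a change of -0.62, and remained lower in *Postn*-DTR under all 8 alternatives. *Slc2a1* and *Vegfa* thus differed in opposite directions, as did *Slc2a1* and *Slc2a4*.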
